A study of Homo sapiens with 20 samples.

Results

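The genes described here are 10 members of the YAP/TEAD branch of Hippo signalling, chosen by name from the 57500 genes in each count table. They are the coactivator genes YAP1 and WWTR1 (the gene for TAZ), the DNA-binding partner gene TEAD1, the transcriptional target genes CCN1 (CYR61), CCN2 (CTGF) and ANKRD1, the pathway regulators AMOTL2, AJUBA and LATS2, and the receptor gene AXL. RNA came from NTERT cells, human keratinocytes immortalized with hTERT, in 4 groups of 5 libraries. The groups share a treatment with serum and calcium that induces differentiation, given before wounding or harvest. WT cells carried a control guide RNA, and GCN2KO cells were a pool edited with CRISPR/Cas9 at the gene of the eIF2 kinase GCN2 (EIF2AK4), so they are not 1 clone. Cells of either genotype were left unwounded or were collected 6 h after high-density wounding (HDW), in which a grid of scratches is drawn through a confluent sheet so that many cells border a wound. Values are normalized read counts, which are deposited counts scaled to a common library size. A gene passed the test at an edgeR adjusted p of at most 0.05, and a DE gene also moved by at least 1 on the log2 scale, up or down.

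In the Hippo pathway, a chain of kinases ending in LATS1 and LATS2 phosphorylates YAP and TAZ and keeps them out of the nucleus. When the kinases are less active, for example in spread cells at a free edge, YAP and TAZ enter the nucleus, bind TEAD factors and raise transcription of genes such as CCN1, CCN2 and ANKRD1. In skin the pathway is known for control of basal keratinocyte growth and of the response to wounds. Much of this control acts on protein location and phosphorylation, which read counts do not measure.

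The libraries held 14083504 to 34611570 counts, and WT unwounded libraries were the shallowest group with a median of 23685751. EIF2AK4 stood at 4356 ± 149 (SD, n = 5) in WT and 894 ± 61.8 (SD, n = 5) in GCN2KO unwounded cells, with no overlap between genotypes. The keratinocyte markers KRT5, KRT14, TP63 and DSG3 were high in each library. The keratinocyte list of 7 genes also held KRT1, KRT10 and IVL. All 7 had at least 10 reads in each WT HDW library, but only 6 did in each library of WT unwounded, GCN2KO unwounded and GCN2KO HDW cells. Among markers of other cells, the melanocyte list of 4 genes summed to 56.5 to 100.3 normalized read counts. TYR was at 0 in each library, but in each group 2 of the 4 genes had at least 10 reads in each library. The immune list of 2 genes summed to 124 to 236, the fibroblast list to 664 to 1039, mostly COL1A1, and the endothelial list to at most 18.2. The late differentiation marker IVL moved with the groups, from 3126 ± 255 to 4465 ± 395 with HDW in WT and from 11071 ± 2637 to 17348 ± 2755 in GCN2KO cells (SD, n = 5). KRT14, a marker of basal cells, stood at 63318 ± 1900.4 in unwounded WT and 35133 ± 3755 in unwounded GCN2KO cells. The sum of the 7 keratinocyte genes went the other way from KRT14. It was 330870 to 340377 in unwounded WT and 372617 to 439951 in unwounded GCN2KO libraries. The part of these shifts in the results was not tested. Over all expressed genes, GCN2KO unwounded replicate 4 correlated as closely with the GCN2KO HDW libraries (mean r 0.9906) as with its own group (mean r 0.9904), and replicate 2 came next (0.9869 and 0.9875). For the members, and for pathway genes that were DE genes in a comparison with the unwounded GCN2KO group, values are given with and without these libraries. These 2 libraries were picked for their likeness to the wounded group, so leaving them out favours larger HDW responses in GCN2KO cells. Values without them are no independent check of those responses or of how they compare with WT. GCN2KO HDW replicate 5 was the most WT-like of its group. Its mean r was 0.9642 with WT HDW libraries (0.9513 to 0.9573 for the others of its group) and 0.9552 with WT unwounded libraries (0.9402 to 0.9450). It had the lowest TEAD1, CCN1, CCN2, AMOTL2, LATS2 and AXL of its group, but not the lowest YAP1, WWTR1 or AJUBA.

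Of the 10 members, 9 had enough counts to be tested in each comparison, and ANKRD1 was not tested. HDW raised 5 members in WT cells (CCN1, CCN2, AMOTL2, LATS2 and AXL) and lowered 1 (AJUBA). Over all 15348 genes tested, 26.1% were higher and 25.2% lower after HDW in WT cells. In GCN2KO cells HDW raised 6 members (CCN1, CCN2, AMOTL2, LATS2, WWTR1 and TEAD1), and AXL, AJUBA and YAP1 did not pass the test, where 11.9% of 15791 genes were higher and 10.8% lower. GCN2KO unwounded cells had 3 members higher (CCN2, AMOTL2 and TEAD1) and 2 lower (WWTR1 and LATS2) than WT, against 33.4% of genes higher and 33.1% lower. After HDW 4 members were higher in GCN2KO cells (CCN2, TEAD1, AMOTL2 and AJUBA) and 2 lower (WWTR1 and AXL), against 35.9% and 35.8% of genes. The effect of HDW differed between the genotypes for 2 members, WWTR1 and TEAD1, both with a larger value in GCN2KO cells, where 11.2% of 16536 genes had a larger and 12.5% a smaller value. Without GCN2KO unwounded replicates 2 and 4, the members past the test were 8 for HDW in GCN2KO, where 18.2% of 16165 genes were higher and 17.7% lower, 5 for the unwounded genotypes, with 33.3% and 33.5% of genes, and 4 for the interaction, with 15.5% of 16895 genes larger and 17.4% smaller. The median log2 fold change of the 9 members was 0.23 for HDW in WT, 0.43 for HDW in GCN2KO, 0.08 for GCN2KO against WT unwounded, 0.29 after HDW and 0.14 for the interaction, and the median over all genes tested was within 0.01 of 0 in each. In bulk samples such as these, fewer cells of a type and less RNA per cell cannot be told apart.

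DE genes were few among the members. CCN1 and CCN2 were DE genes for HDW in both genotypes, where 4.17% of genes in WT and 0.671% in GCN2KO cells were. CCN2 alone was a DE gene for GCN2KO against WT, unwounded and after HDW, where 16.4% and 14.9% of genes were. For the interaction of genotype and HDW, where 3.31% of genes were DE genes, the largest value of a member was 0.45, for TEAD1. The comparisons share groups, so their values are not independent of each other.

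**Figure D1:**
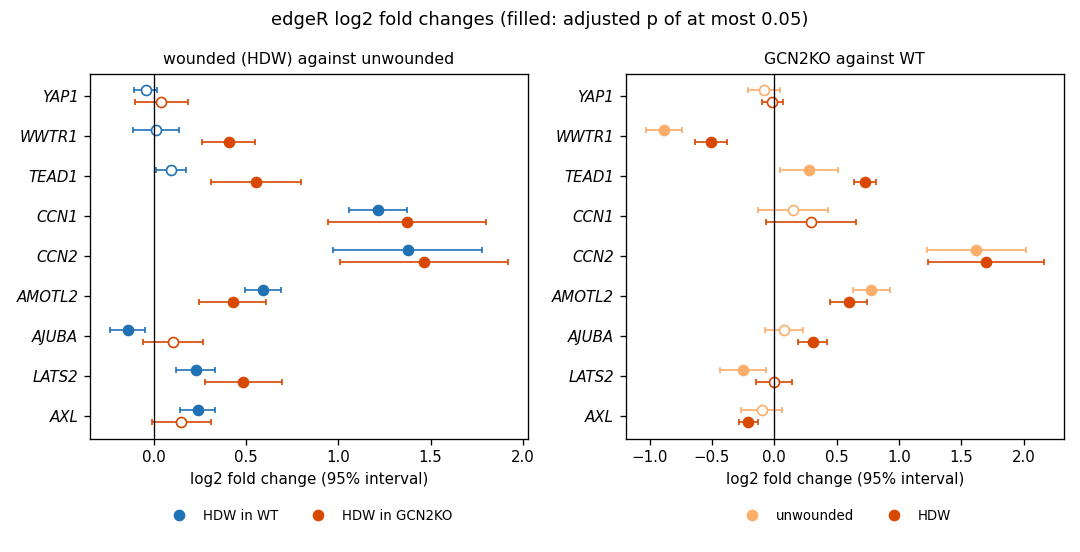
log2 fold changes of 9 members with 95% intervals from the edgeR fits, for HDW against unwounded in WT and GCN2KO cells (left) and for GCN2KO against WT in unwounded and HDW cells (right). Filled points passed an adjusted p of 0.05. CCN1 and CCN2 lie farthest to the right on the left side, and CCN2 (about 1.62 and 1.70) and WWTR1 (-0.89 and -0.51) lie farthest apart on the right side.

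To set different genes side by side, counts were divided by kilobases of exon, with all annotated exons of a gene merged. The length of the transcripts expressed was not measured, so close ranks between genes depend on the annotation. Per kilobase, WT unwounded cells had most AJUBA (1199.7 ± 56.8, SD, n = 5), followed by YAP1 (964 ± 13.4), AMOTL2 (468 ± 12.0), AXL (405 ± 30.8) and TEAD1 (254 ± 5.0). LATS2 (127 ± 7.26), CCN1 (113 ± 15.5) and WWTR1 (105 ± 5.64) came next. CCN1 overlapped both of these neighbours, while each library had more LATS2 than WWTR1 and the ranges of LATS2 and WWTR1 did not meet. CCN2 was far below them at 16.5 ± 2.20 normalized read counts per kilobase, and ANKRD1 was at 0. In GCN2KO HDW cells the order per kilobase was AJUBA (1348 ± 90.3), AMOTL2 (1071 ± 108), YAP1 (927 ± 44.7), TEAD1 (449.5 ± 9.38), AXL (414 ± 13.3), CCN1 (320.4 ± 96.6), LATS2 (148 ± 14.8), CCN2 (136 ± 38.3) and WWTR1 (74.7 ± 2.75). There AMOTL2 and YAP1, AXL and CCN1, and LATS2 and CCN2 were neighbours that overlapped within 1 SD. WWTR1 was thus the lowest of the 9 in wounded GCN2KO cells, and CCN2 the lowest in unwounded WT cells.

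YAP1, the gene of the coactivator YAP, lies on chromosome 11, 102110447 to 102233424 of GRCh38, and its mRNA level stayed within a narrow range. WT unwounded libraries had 5996, 6153, 6117, 6156 and 5985 normalized read counts, and WT HDW libraries 5933, 5729.8, 5857, 6101 and 5961. GCN2KO unwounded libraries had 5915, 6279.97, 5417, 5717 and 5301, and GCN2KO HDW libraries 5571, 5789, 5736, 5831 and 6322. The 4 groups overlapped. The log2 fold change for HDW was -0.043 (SE 0.029, adjusted p = 0.242) in WT and 0.042 (SE 0.067, adjusted p = 0.68) in GCN2KO cells, with 95% intervals of -0.10 to 0.02 and -0.10 to 0.18. Between genotypes it was -0.083 (SE 0.062, adjusted p = 0.251) unwounded and -0.016 (SE 0.04, adjusted p = 0.731) after HDW, the latter with a sign that turned under scaling by library size alone. With that scaling HDW in WT cells passed the test, at -0.081 (adjusted p = 0.0239). Leaving out GCN2KO unwounded replicates 2 and 4 gave 0.086 (adjusted p = 0.321) for HDW in GCN2KO cells and -0.13 (adjusted p = 0.0665) between the unwounded genotypes.

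WWTR1 encodes TAZ, the paralog of YAP, and is on chromosome 3, 149517235 to 149736714. Unlike YAP1 it was lower in GCN2KO cells. WT unwounded libraries had 948, 833, 908, 860.4 and 850.2 normalized read counts and GCN2KO unwounded libraries 495, 509, 449, 466 and 455. After HDW, WT libraries had 947, 762, 879, 930.3 and 928 and GCN2KO libraries 649, 594, 609, 627 and 643. Each GCN2KO library lay below each WT library, and each wounded GCN2KO library above each unwounded one, while the WT groups overlapped. GCN2KO against WT gave a log2 fold change of -0.89 (SE 0.068, adjusted p = 1.13e-08) unwounded and -0.51 (SE 0.061, adjusted p = 3.65e-06) after HDW. HDW gave 0.41 (SE 0.067, adjusted p = 0.00156) in GCN2KO and 0.015 (SE 0.058, adjusted p = 0.855) in WT cells, and the difference between these responses was 0.38 (SE 0.087, adjusted p = 0.00239) by the interaction test in edgeR. Without replicates 2 and 4 of the unwounded GCN2KO group, the value between unwounded genotypes was -0.91 (adjusted p = 7.53e-08). HDW in GCN2KO cells then gave 0.43 (adjusted p = 8.33e-04) and the interaction 0.40 (adjusted p = 0.00186), so all 3 passed the test. For HDW and the interaction this fit is no independent check, because the libraries were left out for their likeness to the wounded ones. Exons of YAP1 share 10.1% and those of WWTR1 9.05% of their bases with other genes, mostly on the other strand, and whether reads were counted by strand is not stated.

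Within a library the balance of the coactivator mRNAs does not depend on scaling between libraries. WWTR1 made up 9.86 ± 0.54% (SD, n = 5) of the summed YAP1 and WWTR1 counts per kilobase in WT unwounded and 10.2 ± 0.628% in WT HDW cells. The share was 5.90 ± 0.128% and 7.47 ± 0.38% in the matching GCN2KO cells. YAP1 was thus the more abundant coactivator mRNA in each library, and the 10 GCN2KO libraries had lower WWTR1 shares than the 10 WT libraries.

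TEAD1, on chromosome 11, 12674421 to 12944737, encodes 1 of the TEAD proteins that carry YAP and TAZ to DNA. Its WT unwounded libraries had 2667, 2678, 2714, 2793 and 2759.6 normalized read counts and WT HDW libraries 2984, 2843, 2781, 3155 and 2784, ranges that overlap slightly. GCN2KO unwounded libraries spread widely, with 3116, 4239.8, 2625, 3774 and 2739, and GCN2KO HDW libraries were close together at 4846, 4865, 4855, 4853 and 4631. Replicates 2 and 4, the unwounded GCN2KO libraries most like the wounded ones over all genes, had the highest TEAD1 of their group, and replicates 3 and 5 were within or below the WT unwounded range. Each wounded GCN2KO library was above each library of the other groups.

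HDW gave a TEAD1 log2 fold change of 0.55 (SE 0.11, adjusted p = 0.00524) in GCN2KO cells and of 0.092 (SE 0.038, adjusted p = 0.0556) in WT cells, and the responses differed by 0.45 (SE 0.13, adjusted p = 0.0106). The WT value passed the test with DESeq2 size factors, at 0.095 (adjusted p = 0.0499), without WT HDW replicate 3, at 0.11 (adjusted p = 0.0386), and without WT HDW replicate 5, at 0.11 (adjusted p = 0.0374). Without GCN2KO unwounded replicates 2 and 4, the response in GCN2KO cells was 0.78 (adjusted p = 3.67e-05) and the difference 0.67 (adjusted p = 9.50e-07). Both values were bound to grow, since these libraries had the highest TEAD1 of their group. GCN2KO exceeded WT by 0.73 (SE 0.042, adjusted p = 3.95e-09) after HDW. The unwounded difference of 0.28 (SE 0.11, adjusted p = 0.0336) rested on few libraries. It was lost in 7 of the 10 fits that left out 1 library, with 0.17 (adjusted p = 0.103) without GCN2KO unwounded replicate 2, and it was 0.057 (adjusted p = 0.451) without replicates 2 and 4. Scaling by library size alone also ended it, at 0.25 (adjusted p = 0.0715).

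The other TEAD genes moved differently. TEAD2 was lower in GCN2KO unwounded cells, with a log2 fold change of -1.33 (SE 0.085, adjusted p = 1.44e-09), or -1.32 (adjusted p = 2.17e-08) without replicates 2 and 4, and fell with HDW in WT cells, at -0.93 (SE 0.068, adjusted p = 2.79e-08). TEAD3 passed the test in the same directions, at -0.24 for GCN2KO unwounded and -0.31 for HDW in WT. TEAD4 rose with HDW in both genotypes, at 0.44 in WT and 0.48 in GCN2KO cells, and was lower in GCN2KO cells, at -0.36 and -0.33. The sum of TEAD1 to TEAD4 counts per kilobase went from 966 ± 27.6 (SD, n = 5) to 877 ± 14.0 with HDW in WT and from 859.6 ± 103 to 1000.3 ± 13.1 in GCN2KO cells. The TEAD1 share of that sum went from 26.4 ± 0.373% to 31.0 ± 1.45% in WT and from 35.6 ± 3.69% to 44.9 ± 1.16% in GCN2KO cells. The group ranges of this share did not all separate, since the highest WT HDW library was at 33.2% and the lowest GCN2KO unwounded library at 32.1%.

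**Figure D2:**
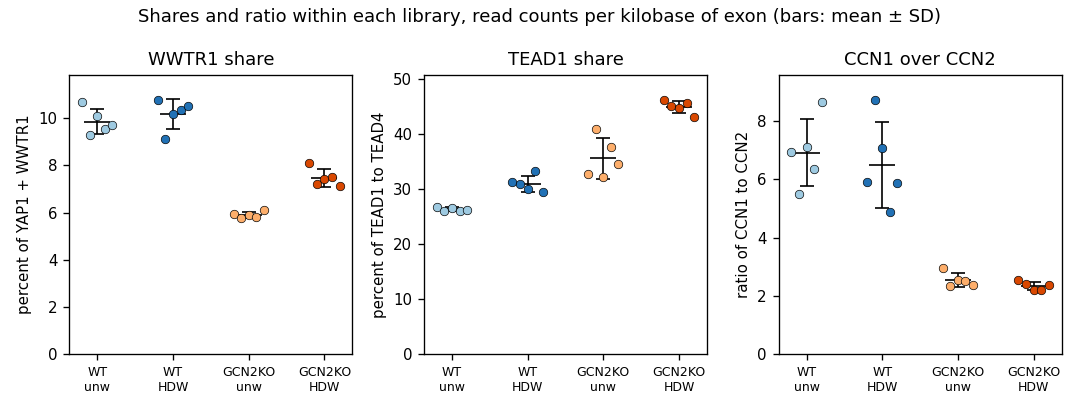
Share of WWTR1 in YAP1 plus WWTR1 (left, percent), share of TEAD1 in TEAD1 to TEAD4 (middle, percent) and ratio of CCN1 to CCN2 (right), each from normalized read counts per kilobase of exon within a library. Points are the 20 libraries, and bars give mean ± SD of each group of 5. The WWTR1 share and the CCN1 to CCN2 ratio are lower in each GCN2KO library than in each WT library.

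Among TEAD cofactors of the vestigial-like family, which compete with or stand in for YAP and TAZ on TEAD, VGLL3 was the DE gene for HDW in GCN2KO cells. It rose by 1.07 (SE 0.095, adjusted p = 2.67e-05) there and by 0.25 (SE 0.059, adjusted p = 0.00234) in WT cells, a difference of 0.81 (SE 0.12, adjusted p = 2.00e-05). Without unwounded replicates 2 and 4 the rise in GCN2KO cells was 1.18 (adjusted p = 3.67e-05). Unwounded GCN2KO cells had less VGLL3 than WT cells (-0.84, adjusted p = 1.21e-07), whereas after HDW the difference was -0.027 (adjusted p = 0.774). VGLL1 was higher and VGLL4, a repressor of TEAD activity, lower in GCN2KO cells in both states, though 23.8% of the VGLL4 exon bases overlap other genes. Of the 7 TEAD and vestigial-like genes besides TEAD1, 6 were tested. HDW raised 3 and lowered 2 in WT cells, where 26.1% of all genes tested were higher and 25.2% lower. It raised 3 in GCN2KO cells, where 11.9% of genes were higher and 10.8% lower. GCN2KO unwounded cells had 1 higher and 5 lower, against 33.4% and 33.1% of genes. GCN2KO HDW cells had 1 higher and 3 lower, against 35.9% and 35.8% of genes.

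CCN1 encodes a secreted matrix protein that binds integrins and is an early YAP/TEAD target, on chromosome 1, 85580761 to 85584589. Unwounded WT libraries held 503, 357, 421, 374 and 435 normalized read counts and WT HDW libraries 964, 869.9, 1000.1, 1001 and 1003. The unwounded GCN2KO libraries held 337, 458, 545, 562 and 398 and GCN2KO HDW libraries 1635, 1251, 1171, 1230.4 and 637. Each wounded library was above each unwounded library in both genotypes, and GCN2KO HDW replicate 5 was the lowest wounded library by a wide margin. HDW raised CCN1 by a log2 fold change of 1.22 (SE 0.073, adjusted p = 4.05e-09) in WT and 1.37 (SE 0.2, adjusted p = 7.45e-04) in GCN2KO cells, and the difference between the responses was 0.14 (SE 0.23, adjusted p = 0.7) with a 95% interval of -0.34 to 0.63.

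Between genotypes CCN1 did not pass the test, with 0.15 (SE 0.13, adjusted p = 0.328) unwounded and 0.29 (SE 0.17, adjusted p = 0.132) after HDW. The latter depended on 1 library. Without GCN2KO HDW replicate 5 it was 0.46 (adjusted p = 2.15e-04), and the other 4 libraries, at 1171 to 1635, lay above all 5 WT HDW libraries. Without GCN2KO unwounded replicates 2 and 4, HDW in GCN2KO cells gave 1.48 (adjusted p = 8.88e-04), the unwounded genotypes differed by 0.044 (adjusted p = 0.794) and the interaction was 0.25 (adjusted p = 0.496).

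CCN2 encodes connective tissue growth factor, a matricellular protein and a widely used readout of YAP activity, on chromosome 6, 131948176 to 131951372. In WT cells the unwounded libraries had 45.7, 41.0, 37.4, 37.2 and 31.8 normalized read counts and the wounded ones 103, 63.1, 89.5, 129.6 and 108. In GCN2KO cells they had 71.6, 124, 135, 142 and 106 and the wounded ones 408, 330.4, 337, 351 and 169. In each genotype the wounded libraries were above the unwounded ones, and in each state the GCN2KO libraries were above the WT ones. Unwounded GCN2KO and wounded WT libraries overlapped. HDW raised CCN2 by 1.38 (SE 0.19, adjusted p = 2.01e-05) in WT and 1.46 (SE 0.21, adjusted p = 7.45e-04) in GCN2KO cells. GCN2KO exceeded WT by 1.62 (SE 0.19, adjusted p = 1.25e-06) unwounded and 1.70 (SE 0.22, adjusted p = 6.98e-06) after HDW. The interaction was 0.076 (SE 0.34, adjusted p = 0.9) with a 95% interval of -0.62 to 0.77.

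The counts behind CCN2 were low in WT unwounded libraries, at 23 to 40 reads. Leaving out GCN2KO HDW replicate 5, which had the lowest CCN2 of its group as it did of CCN1, gave 1.87 (adjusted p = 2.05e-08) for GCN2KO against WT after HDW. With unwounded replicates 2 and 4 left out, CCN2 gave 1.60 (adjusted p = 7.61e-04) for HDW in GCN2KO cells, 1.48 (adjusted p = 1.22e-05) between the unwounded genotypes and 0.22 (adjusted p = 0.699) for the interaction. Exons of CCN2 share 11.9% of their bases with LINC01013 on the other strand. CCN1 exceeded CCN2 per kilobase by 6.91 ± 1.16 times (SD, n = 5) in WT unwounded and 6.49 ± 1.46 times in WT HDW cells. The ratio was 2.55 ± 0.252 and 2.35 ± 0.141 in the matching GCN2KO cells, lower in each GCN2KO library than in each WT library.

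ANKRD1 encodes a nuclear ankyrin repeat protein and is a standard YAP/TEAD target in other cells. It was barely detected here. Each WT unwounded library had 0 reads, 1 WT HDW library had 3, GCN2KO unwounded replicates 4 and 5 had 1 and 4, and GCN2KO HDW replicates 3, 4 and 5 had 3, 1 and 4. With at most 4 reads in a library, a difference between the groups was not detectable at this depth. The 4 other CCN genes, CCN3 to CCN6, had at most 10 reads in a library and were not tested either.

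The promoters of the target genes are shown because the members differ in how often they hold the TEAD recognition letters GGAATG. RefSeq windows of 300 bases (GRCh38.p14, 250 bases before to 50 after a start site) were found for 8 of the 10 members, without TEAD1 and CCN1, as 12 windows. GGAATG on either strand was found in 7 of these windows, 1 for each of 7 members, and in 14.0% of all 35116 windows. The members were chosen as pathway genes, so this share is a description. The 250 bases before the start site are printed 5′ to 3′ on the gene's strand, with GGAATG or its reverse complement in capitals, for CCN2 (chr6:131951373-131951622, minus strand), which holds 3 matches, ANKRD1 (chr10:90921088-90921337, minus strand), which holds 2, and AMOTL2 (chr3:134374448-134374697, minus strand), which holds 1.
CCN2: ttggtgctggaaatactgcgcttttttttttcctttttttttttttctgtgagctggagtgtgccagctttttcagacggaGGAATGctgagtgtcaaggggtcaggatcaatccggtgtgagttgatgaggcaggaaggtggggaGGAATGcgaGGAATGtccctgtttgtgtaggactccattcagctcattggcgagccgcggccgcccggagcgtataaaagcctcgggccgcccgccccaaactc
ANKRD1: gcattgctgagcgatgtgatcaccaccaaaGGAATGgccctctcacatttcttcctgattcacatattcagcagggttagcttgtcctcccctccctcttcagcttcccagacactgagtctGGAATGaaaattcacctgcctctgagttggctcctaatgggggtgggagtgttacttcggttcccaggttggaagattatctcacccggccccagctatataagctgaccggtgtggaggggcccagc
AMOTL2: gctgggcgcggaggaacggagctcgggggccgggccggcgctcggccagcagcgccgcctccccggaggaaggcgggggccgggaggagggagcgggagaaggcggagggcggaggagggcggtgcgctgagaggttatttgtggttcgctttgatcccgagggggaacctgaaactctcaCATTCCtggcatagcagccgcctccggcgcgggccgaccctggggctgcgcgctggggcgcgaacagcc

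The CCN2 matches began 169, 104 and 95 bases before the start site, the later pair close together. The AMOTL2 match began 69 bases before the start site of the window shown. The other AMOTL2 window (chr3:134375418-134375667) held no match, and neither did the other windows of AJUBA and AXL. ANKRD1, the member with almost no reads, had matches 220 and 128 bases before its start. YAP1, AJUBA and AXL each held 1 match before a start site and LATS2 1 just after it, and neither WWTR1 window held one. The AP-1 letters TGANTCA were found in 7.71% of all windows and, among the members, in the ANKRD1 window alone. A match is a description of the letters and says nothing about binding in these cells.

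AMOTL2 encodes an angiomotin-like scaffold that holds YAP at junctions and is itself a YAP target. It is on chromosome 3, 134355347 to 134375479. Without wounding, WT libraries had 3149.9, 3014, 3076, 2974 and 2963 normalized read counts and WT HDW libraries 4198, 5011, 4803, 4415 and 4506. The GCN2KO values were 4778, 5435, 4995, 5958 and 4784 unwounded and, after HDW, 7669.5, 7437, 7097, 6547 and 5949. AMOTL2 had the order of CCN2, lowest in WT unwounded and highest in GCN2KO HDW cells. The wounded and unwounded GCN2KO groups overlapped by 1 library on each side, with GCN2KO unwounded replicate 4 just above GCN2KO HDW replicate 5. HDW raised AMOTL2 by 0.59 (SE 0.046, adjusted p = 5.21e-08) in WT and 0.43 (SE 0.085, adjusted p = 0.00425) in GCN2KO cells, and GCN2KO exceeded WT by 0.78 (SE 0.07, adjusted p = 7.15e-08) unwounded and 0.60 (SE 0.068, adjusted p = 2.52e-06) after HDW. The interaction was -0.18 (SE 0.099, adjusted p = 0.207), with a 95% interval of -0.38 to 0.027. Leaving out unwounded replicates 2 and 4 gave AMOTL2 values of 0.52 (adjusted p = 5.90e-04) for HDW in GCN2KO cells, 0.68 (adjusted p = 7.62e-08) between the unwounded genotypes and -0.082 (adjusted p = 0.538) for the interaction.

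AJUBA encodes a LIM-domain protein of cell junctions that binds and restrains LATS kinases, on chromosome 14, 22971177 to 22982551. WT values were 7649, 6941, 6896, 6984 and 6830.2 normalized read counts unwounded and, after HDW, 6333, 6826, 6616, 6428 and 5872. GCN2KO values were 6743, 7761, 6984, 8491 and 7148 unwounded and, after HDW, 8390.1, 8495, 7922, 7209 and 7648. The highest WT HDW library fell just short of the lowest WT unwounded one. HDW lowered AJUBA in WT cells, with a log2 fold change of -0.14 (SE 0.045, adjusted p = 0.0168), a call lost when all 20 libraries were fitted together, at -0.14 (adjusted p = 0.0897). In GCN2KO cells the value was 0.11 (SE 0.076, adjusted p = 0.326), and 0.20 (adjusted p = 0.0385) without unwounded replicates 2 and 4. The responses differed by 0.23 (SE 0.089, adjusted p = 0.0591), which passed the test under 7 of 28 alternatives. Among them were the fit without those libraries, at 0.33 (adjusted p = 0.00302), library size alone, at 0.30 (adjusted p = 0.0236), and the DESeq2 Wald test, at 0.23 (adjusted p = 0.0429). After HDW each GCN2KO library was above each WT library, at 0.31 (SE 0.053, adjusted p = 1.26e-04), and unwounded the groups overlapped, at 0.077 (SE 0.072, adjusted p = 0.362), or -0.017 (adjusted p = 0.826) without those libraries.

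LATS2 encodes 1 of the kinases that phosphorylate YAP and TAZ, and its gene is a YAP target in a negative feedback loop, on chromosome 13, 20973036 to 21061586. Its unwounded WT values were 765, 744, 682, 669 and 705 normalized read counts and its wounded ones 876, 787, 815, 877 and 809. Its unwounded GCN2KO values were 596, 653, 532, 689 and 514 and its wounded ones 916, 846, 871, 812 and 695. In both genotypes the wounded libraries were above the unwounded ones. The log2 fold change for HDW was 0.23 (SE 0.05, adjusted p = 0.00121) in WT and 0.49 (SE 0.097, adjusted p = 0.00459) in GCN2KO cells, and the responses differed by 0.25 (SE 0.11, adjusted p = 0.109). That difference passed the test under 4 of 28 alternatives. It was 0.37 (adjusted p = 0.00824) without GCN2KO unwounded replicates 2 and 4 and 0.32 (adjusted p = 0.0322) without replicate 4 alone. It was 0.31 (adjusted p = 0.0328) without GCN2KO HDW replicate 5 and 0.31 (adjusted p = 0.0491) with library size alone. Unwounded GCN2KO cells had less LATS2 than WT, at -0.25 (SE 0.087, adjusted p = 0.0183), with overlapping ranges. The call was lost without GCN2KO unwounded replicate 5, at -0.20 (adjusted p = 0.0522), and in counts thinned to the smallest library, at -0.20 (adjusted p = 0.0814). It was larger without GCN2KO unwounded replicates 2 and 4, at -0.37 (adjusted p = 6.72e-04), and so was the response to HDW in GCN2KO cells, at 0.61 (adjusted p = 5.46e-04). After HDW the genotypes overlapped, and the log2 fold change did not pass the test, with a 95% interval of -0.15 to 0.14.

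AXL encodes a TAM receptor tyrosine kinase that is induced by YAP and TEAD in many epithelial cells, on chromosome 19, 41219223 to 41261766. The unwounded WT libraries had 1832, 2268, 2124, 2107 and 2052 normalized read counts and WT HDW libraries 2409.5, 2456, 2393, 2463 and 2562. Those of GCN2KO cells had 1861, 2119.9, 1798, 2173 and 1710.3, and after HDW 2191, 2135, 2186, 2095 and 2027. The wounded WT libraries were the highest of all, above each library of the other 3 groups. HDW raised AXL in WT cells by 0.24 (SE 0.044, adjusted p = 3.41e-04), and in GCN2KO cells the value was 0.15 (SE 0.075, adjusted p = 0.155), or 0.26 (adjusted p = 0.00545) without unwounded replicates 2 and 4. The responses did not pass the test for a difference, which was -0.10 (SE 0.088, adjusted p = 0.435), or 0.0064 (adjusted p = 0.959) without those libraries. After HDW, GCN2KO cells had less AXL than WT cells, at -0.21 (SE 0.037, adjusted p = 1.65e-04), and unwounded the difference was -0.10 (SE 0.078, adjusted p = 0.27), or -0.21 (adjusted p = 0.0142) without GCN2KO replicates 2 and 4.

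GAS6, the gene of the AXL ligand, and PROS1, the gene of protein S, a ligand of the sister receptors TYRO3 and MERTK, were lower in unwounded GCN2KO than in unwounded WT cells. PROS1 stood at 439 ± 37.0 (SD, n = 5) in unwounded WT and 213 ± 36.3 in unwounded GCN2KO cells, a DE gene at -1.03 (SE 0.11, adjusted p = 4.64e-07). Without unwounded replicates 2 and 4 the PROS1 value was -0.88 (adjusted p = 1.22e-06), past the test but short of the fold of a DE gene. GAS6 gave -0.65 (SE 0.063, adjusted p = 1.64e-07). HDW lowered both ligands in WT cells, with log2 fold changes of -0.35 for GAS6 and -0.44 for PROS1, and raised the sister receptor TYRO3 by 0.98 (SE 0.073, adjusted p = 3.43e-08). In GCN2KO cells the HDW values of TYRO3, GAS6 and PROS1 were 0.26 (SE 0.092, adjusted p = 0.0563), 0.028 (SE 0.064, adjusted p = 0.787) and -0.29 (SE 0.13, adjusted p = 0.12), which did not pass the test.

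**Figure D3:**
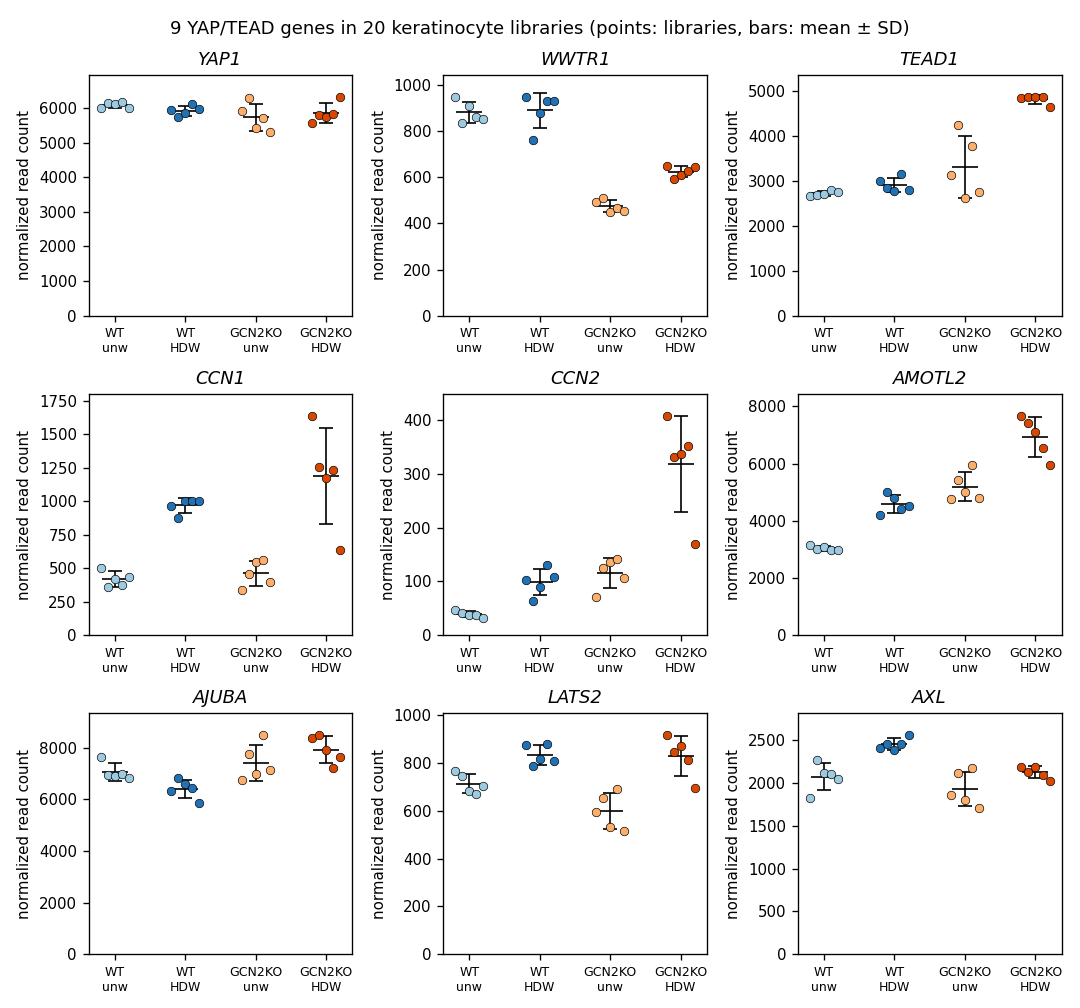
Normalized read counts of 9 members in the 20 libraries, by group (unw, unwounded), with mean ± SD of 5 libraries. CCN1 splits the wounded from the unwounded libraries, WWTR1 splits the genotypes, and CCN2 and AMOTL2 are lowest in WT unwounded and highest in GCN2KO HDW cells. In GCN2KO HDW cells the low CCN1 and CCN2 points are both replicate 5.

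Hippo kinases, adaptors and upstream regulators other than the members were followed as a list of 22 genes, of which 20 were tested. HDW raised 10 and lowered 2 of them in WT cells, where 26.1% of all genes tested were higher and 25.2% lower. It raised 11 in GCN2KO cells and 9 did not pass the test, where 11.9% of genes were higher and 10.8% lower. The median log2 fold changes of the list were 0.09 and 0.36. Listed genes that rose in both genotypes include LATS1, the partner kinase of LATS2 (0.29 in WT and 0.44 in GCN2KO). They also include NF2, the gene of merlin, which recruits LATS to the membrane (0.35 and 0.42), and FAT4, an atypical cadherin (0.64 and 0.86). FRMD6, a FERM-domain activator of the pathway, fell in WT cells (-0.38, adjusted p = 1.59e-06).

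Between genotypes the Hippo list went both ways. Unwounded GCN2KO cells had 5 genes higher and 7 lower than WT, and wounded GCN2KO cells 8 higher and 5 lower, with medians of -0.06 and 0.02. All genes tested went both ways as well, with 33.4% higher and 33.1% lower unwounded, and 35.9% and 35.8% after HDW. The DE gene FAT4 was higher in GCN2KO cells in both states, at 1.36 (SE 0.2, adjusted p = 1.33e-05) unwounded, or 1.01 (adjusted p = 4.89e-06) without replicates 2 and 4, and 1.57 (SE 0.082, adjusted p = 1.56e-09) after HDW. WWC1, which encodes the LATS activator KIBRA, was a DE gene after HDW at 1.04 (SE 0.053, adjusted p = 1.41e-09). Its response to HDW was 0.75 (SE 0.096, adjusted p = 3.89e-04) in GCN2KO and 0.024 (SE 0.063, adjusted p = 0.775) in WT cells, a difference of 0.71 (SE 0.12, adjusted p = 1.05e-04). The interaction passed the test for 4 genes of the list, all with a larger value in GCN2KO cells, and for 12 without GCN2KO unwounded replicates 2 and 4, a fit that also called more of all genes (15.5% larger and 17.4% smaller, against 11.2% and 12.5%).

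**Figure D4:**
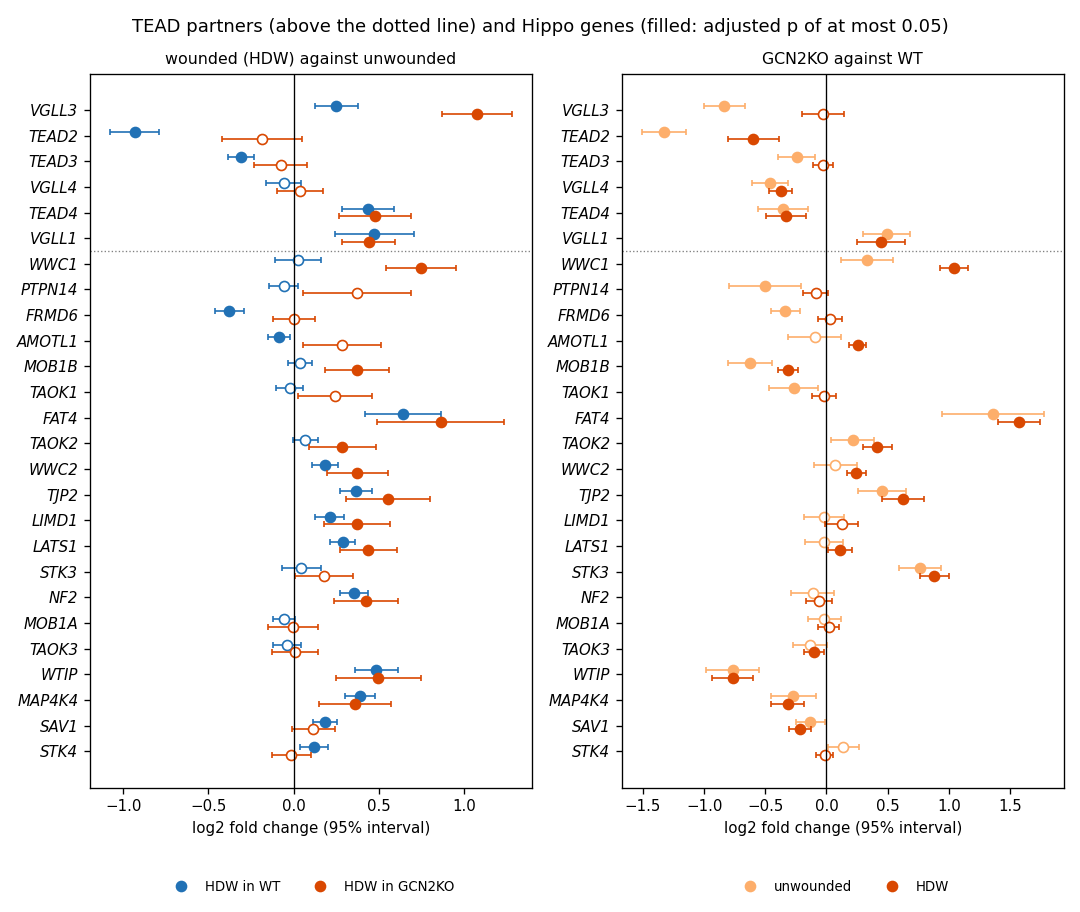
log2 fold changes with 95% intervals of 6 TEAD and vestigial-like genes (above the dotted line) and 20 Hippo genes, for HDW (left) and for GCN2KO against WT (right), each set ordered by its interaction value. Filled points passed an adjusted p of 0.05. VGLL3 and WWC1 at the top of their sets have the HDW responses that are farthest apart, and FAT4 lies farthest right between genotypes.

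A published YAP/TAZ target signature without the members gave 16 further genes, all tested, of which PTPN14 is also on the Hippo list. HDW raised 7 and lowered 3 in WT cells, where 26.1% of all genes tested were higher and 25.2% lower. It raised 10 in GCN2KO cells and 6 did not pass the test, where 11.9% of genes were higher and 10.8% lower. The medians of the signature were 0.16 and 0.52. In WT cells 3 signature genes were DE genes, against 4.17% of all genes tested. F3, the gene of tissue factor, rose by 1.39 (SE 0.062, adjusted p = 2.29e-10) and NT5E, the gene of the ectonucleotidase CD73, by 1.05 (SE 0.054, adjusted p = 8.25e-10). RBMS3, which encodes an RNA-binding protein, was lower after HDW, at -1.47 (SE 0.13, adjusted p = 1.59e-07). F3 and NT5E rose less in GCN2KO cells, at 0.70 and 0.50, with differences of -0.71 (SE 0.11, adjusted p = 6.70e-05) and -0.56 (SE 0.087, adjusted p = 5.13e-05). Both were already higher in unwounded GCN2KO cells, with F3 at 9764 ± 779.9 against 4972 ± 269 normalized read counts in WT and NT5E at 873 ± 63.4 against 508 ± 23.9 (SD, n = 5). After HDW they were still higher in GCN2KO cells, with F3 at 15747 ± 1866 against 13067 ± 1292 and NT5E at 1226 ± 70.4 against 1058 ± 74.5, differences of 0.27 (SE 0.084, adjusted p = 0.0102) and 0.22 (SE 0.056, adjusted p = 0.00306). CRIM1, ASAP1 and ARHGEF17 had a larger HDW response in GCN2KO cells, with interactions of 0.70, 0.55 and 0.54 that passed the test. Their levels were lower in GCN2KO cells, with each GCN2KO library below each WT library in both states. Unwounded GCN2KO libraries held at most 2771 CRIM1, 1280 ASAP1 and 759 ARHGEF17 normalized read counts. Unwounded WT libraries held at least 4110, 1592 and 1042.

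Unwounded GCN2KO cells had 3 signature genes higher and 9 lower than WT, and wounded GCN2KO cells 4 higher and 7 lower, with medians of -0.40 and -0.15. The shares over all genes tested were 33.4% higher and 33.1% lower unwounded, and 35.9% and 35.8% after HDW. The signature list held genes of both directions, where CCN2 and AMOTL2 were higher in GCN2KO cells. FJX1, which encodes a secreted kinase-like protein, was the lowest at -1.61 (SE 0.14, adjusted p = 6.26e-08) unwounded and -1.57 (SE 0.087, adjusted p = 2.92e-09) after HDW, and -1.61 (adjusted p = 8.48e-07) unwounded without replicates 2 and 4. TGFB2, the gene of the growth factor TGF-beta 2, was higher at 1.20 (SE 0.078, adjusted p = 1.69e-09) and 1.26 (SE 0.075, adjusted p = 5.66e-09), with 34.2% of its exon bases overlapping other genes, and its unwounded value without replicates 2 and 4 was 1.08 (adjusted p = 3.16e-09). RBMS3 was higher in wounded GCN2KO cells than in wounded WT cells, at 1.17 (SE 0.12, adjusted p = 1.08e-06), where it had fallen in WT cells. Its unwounded difference was 0.00097 (adjusted p = 0.995), and its interaction 1.17 (SE 0.18, adjusted p = 3.32e-05) made it the DE gene of the list there, at 1.29 (adjusted p = 7.09e-06) without unwounded GCN2KO replicates 2 and 4. The interaction passed the test for 6 genes with a larger and 2 with a smaller HDW response in GCN2KO cells, against 11.2% and 12.5% of all genes tested.

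**Figure D5:**
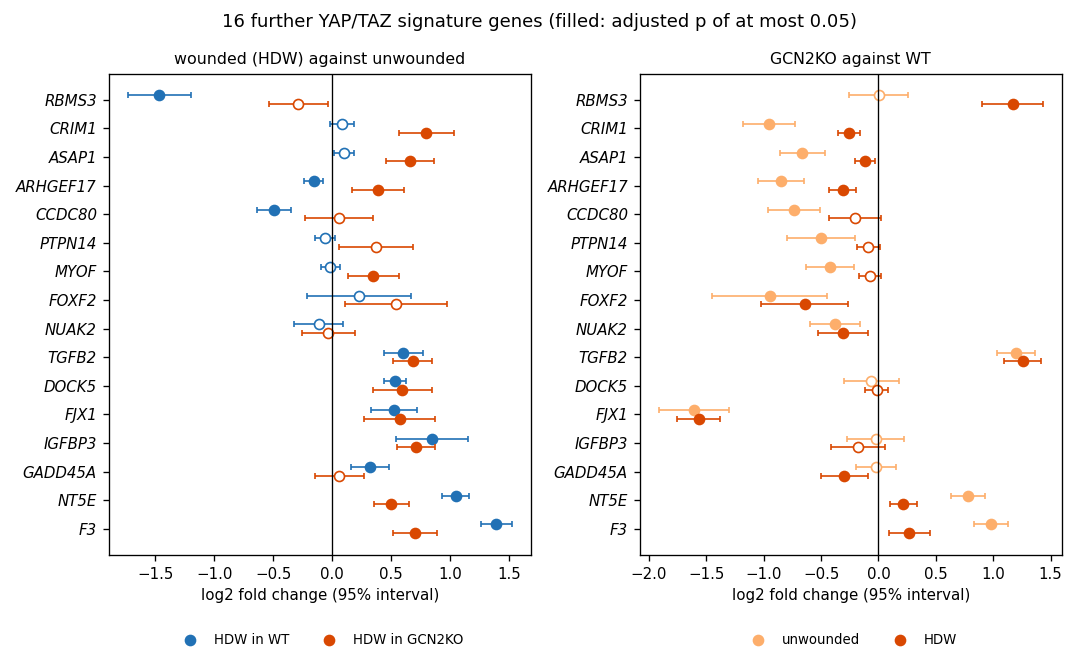
log2 fold changes with 95% intervals of 16 YAP/TAZ signature genes for HDW (left) and for GCN2KO against WT (right), ordered by interaction value. Filled points passed an adjusted p of 0.05. RBMS3 at the top and F3 and NT5E at the bottom have HDW responses that differ between genotypes, and FJX1 and TGFB2 lie on opposite sides of 0 between genotypes.

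The genes whose pattern over the 20 libraries was most like that of CCN1, by Pearson's r of log2 normalized read counts, were PTGS2 (0.974) and PDE12 (0.953). Most like CCN2 were STEAP4 (0.975) and GRHL3 (0.969). The libraries fall into 4 groups, so these values describe group levels more than variation within a group.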

How the data were processed

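RNA-seq libraries of NTERT keratinocytes were analysed, 5 in each of 4 groups. The authors trimmed read pairs with Trimmomatic, aligned them to GRCh38 with STAR and deposited raw counts of uniquely mapped reads on exons per gene from featureCounts, with no normalization. Strand setting, annotation release and treatment of overlapping genes are not given in the sources used here. Of 57500 Ensembl gene IDs, 56410 matched GENCODE release 44, used for symbols, positions and lengths, and 1090.0 did not. Counts were tested with edgeR 4.0.16 in R 4.3.3 (glmQLFit, glmQLFTest, TMM, filterByExpr with minimum count 10 and minimum total 15), with the 10 libraries of a comparison or all 20 for the interaction, and Benjamini-Hochberg adjustment over all genes tested. SE is the size of the log2 fold change over the square root of F. Normalized read counts divide counts by the TMM library size relative to its mean over 20 libraries, and likeness used log2 with a pseudocount of 0.5. The pipeline was tested on simulated data.

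The members and gene lists were chosen with earlier results of these data known. Named genes are the members, EIF2AK4, up to 3 DE genes of each list per comparison with the smallest adjusted p, and the 3 genes most like CCN1 and CCN2, of which the third of each is not reported here. Other list genes were named after their values were seen. The study calls its replicates biological, and whether the 5 of a group were separate cultures or separate experiments is not given in the sources used here, so p-values measure the spread between these libraries. No libraries were duplicates within sampling noise. Alternatives were DESeq2 1.42.0, its size factors, library size as the only scaling, no low-count filter, a minimum mean of 50 counts, one fit of all 20 libraries, the replicate number as a block, thinned counts, the DE gene rule and each library left out. Leaving out GCN2KO unwounded replicates 2 and 4 together was added after seeing the data, for their likeness to the wounded GCN2KO libraries. Promoter windows came from RefSeq (GRCh38.p14). Python 3.11.15 and matplotlib 3.10.9 drew the figures.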

Additional observations from a re-analysis of the deposited data

Results flagged for a closer look

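Of 40 groups of 5 libraries (10 members in 4 groups), 4 had a library far from the others by Dixon's ratio at a critical value of 0.71, and chance gives about 1 in 20. TEAD1 in GCN2KO HDW replicate 5 was low at 4631 normalized read counts, with the other 4 libraries at 4846 to 4865. AJUBA in WT unwounded replicate 1 was high at 7649, with the others at 6830.2 to 6984. ANKRD1 was high in WT HDW replicate 5 at 2.59 and in GCN2KO unwounded replicate 5 at 3.38 normalized read counts, which are 3 and 4 reads. The gene was at 0 in 4 libraries of the first group and 3 of the second, where a few reads suffice for a flag. The rate of 1 in 20 does not apply to these ANKRD1 flags.

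WWTR1 and TEAD1 responded to HDW unequally in WT and GCN2KO cells. The difference was past the test for WWTR1, with an interaction of 0.38 on the log2 scale (edgeR adjusted p = 0.00239), and for TEAD1, with 0.45 (edgeR adjusted p = 0.0106). In both genes the wounded GCN2KO libraries were above each unwounded GCN2KO library (5 of 5), and the WT groups overlapped. TEAD1 spread widely among unwounded GCN2KO libraries, and it was highest in replicates 2 and 4, which were like the wounded libraries. Without these 2 libraries the edgeR interaction was 0.40 (adjusted p = 0.00186) for WWTR1 and 0.67 (adjusted p = 9.50e-07) for TEAD1. As the 2 libraries were left out for their likeness to the wounded ones, this fit is no independent check of the unequal responses. The late differentiation marker IVL rose with HDW in both genotypes, and the part of differentiation in the unequal responses was not tested.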

How the results depend on the processing

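Under the alternatives, 1249 of 1306 values of single members, EIF2AK4 and list genes kept their direction and their side of the threshold, 12 lost the call, 20 gained it and 25 changed sign, all of the last from values that had not passed the test. With the DE gene rule the members past the test were 2 for HDW in WT, 2 for HDW in GCN2KO, 1 and 1 for GCN2KO against WT unwounded and after HDW, and 0 for the interaction. The shares over all genes tested by that rule were 4.17%, 0.671%, 16.4%, 14.9% and 3.31% in the same order. For the interaction, library size alone gave 4 members, and leaving out GCN2KO unwounded replicates 2 and 4 together gave 4 members and 12 of 20 Hippo genes, in a fit that called 15.5% of all genes larger and 17.4% smaller against 11.2% and 12.5% with all libraries. Leaving out 1 library gave 2 to 4 members (4 without GCN2KO unwounded replicate 4) and 4 to 7 Hippo genes (7 without replicate 2). For HDW in GCN2KO, the TAM genes past the test went from 0 to 1 with a mean of at least 50 counts, 2 in one fit of all 20, 2 without replicates 2 and 4, and 0 to 2 with 1 library left out (2 without GCN2KO unwounded replicate 2, 1 without replicate 4). Except for the DE gene rule and the fits without replicates 2 and 4 together, shares of all genes called are not reported here. In those fits a gain in members or list genes cannot be told from a general gain in calls.

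Signs changed for HDW in WT of WWTR1 (-0.024 with library size alone, and -0.0076 to 0.065 with 1 library left out) and for GCN2KO against WT after HDW of YAP1 (0.017 with library size alone, -0.045 to 0.0012 with 1 left out) and LATS2 (0.026 with library size alone, 0.0024 with a mean of at least 50 counts, -0.045 to 0.054 with 1 left out). They also changed without GCN2KO unwounded replicates 2 and 4 for AJUBA unwounded (-0.017) and the AXL interaction (0.0064), and with 1 library left out for the interactions of CCN1 (-0.0036 to 0.30), CCN2 (-0.051 to 0.24) and EIF2AK4 (-0.019 to 0.051) and for HDW in GCN2KO of EIF2AK4 (-0.061 to 0.0020). The cause was not tested.

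Samples of the same number did not deviate together (mean r -0.09 to 0.04), and numbers were not stated to pair samples. With the replicate block, 6, 6, 5 and 6 members passed the test in the pairwise comparisons and 2 for the interaction, as without it, and it changed no call of a member. The shares of all genes called with the block are not reported here. Depth limits ANKRD1 and CCN3 to CCN6, which were not tested, and WT unwounded CCN2, at 23 to 40 reads.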
